A study of Mus musculus with 10 samples.

Results

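Lines of B16OVA that had grown out as tumours in mice immunized with ovalbumin (OVA) were compared with lines from tumours of naive mice, to describe what the immunized groups have in common whether or not the host could make interferon-gamma (IFN-γ). B16OVA is a B16 melanoma line of C57BL/6 origin that carries OVA as a model antigen. The comparison used 9 of the 10 arrays of the series, chosen by the host named in the labels. The 3 NIMM lines (1, 3 and 4) came from naive B6 mice, the 3 IMM lines (1, 2 and 8) from OVA-immunized B6 mice, and the 3 GKO-IMM lines (1, 2 and 3) from OVA-immunized mice deficient in IFN-γ. The 6 IMM and GKO-IMM lines formed 1 group against the 3 NIMM lines. The parent line, which had not been through a mouse host as far as the labels say, had 1 array and entered no test. All lines share the OVA-bearing melanoma background, and no line from a naive IFN-γ-deficient mouse was analysed here, so IFN-γ deficiency of the host can be read only among immunized hosts. The labels do not say that the lines of a group came from separate animals, and the p-values measure the spread between these lines.

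Each line was measured once on an Affymetrix mouse gene array, whose probes are summarized to 1 intensity (in arbitrary units) per transcript cluster. Differences are log2 differences of intensity, immunized minus naive, with the standard error (SE) of limma's fit of 6 lines against 3. The threshold for passing was a two-sided p under 0.05 after Benjamini-Hochberg adjustment over all 16352 genes tested. These were the genes whose mean over the 9 lines lay above an intensity of 26.7. The median intensity of an array was 31.9 to 32.5. All 9 melanocytic markers examined were above that filter, with summed intensities of 30427 to 33782 over the 9 lines. Of the markers of other cell types on the array, 4 of 13 for T and NK cells (Cd3d, Nkg7, Lck and Cd2), 5 of 7 for B cells, 9 of 16 for myeloid cells, 9 of 13 for fibroblasts and pericytes and 6 of 9 for endothelium were also above it. The myeloid ones above it were Csf1r, Itgam, Cd68, C1qa, C1qb, Tyrobp, Fcer1g, Itgax and Itgb2, while Ptprc, Adgre1, Lyz2, Cd3e, Cd3g, Cd4, Cd8a and Cd8b1 were among those under it. The sums of the 16 myeloid markers were 563 to 619 in the NIMM lines, 600 to 636 in the IMM lines and 550 to 571 in the GKO-IMM lines. No marker of T and NK cells, B cells, myeloid cells, fibroblasts or endothelium passed between the groups (smallest adjusted p 0.433 by limma). The lines did not divide by host alone. On the first principal component, which held 40.6% of the variance, NIMM 4 lay at 14.7 and the GKO-IMM lines at 9.58 to 11.1, apart from the other NIMM lines and all IMM lines at -10.4 to -7.86. The second component, with 15.3%, placed the NIMM lines at 5.43 to 10.1 and the 6 immunized lines at -7.91 to -0.21. In the deposited table the parent and NIMM columns come first and the immunized columns after them. Whether the arrays were processed in that order is not given in the sources used here, so order and host cannot be told apart.

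Several of the genes that differed encode small noncoding RNAs. Small nucleolar RNAs (snoRNAs) are mostly processed from introns of genes for ribosomal proteins and translation factors. The C/D box class guides ribose methylation and the H/ACA box class pseudouridylation, chiefly of ribosomal RNA. MicroRNAs are cut from hairpin precursors and lower the output of messenger RNAs that match their seed, while small nuclear RNAs form the core of the spliceosome. A gene array of this kind cannot tell precursor, host intron and mature RNA apart, and which form the probes read was not tested.

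The mature microRNAs of the genes that passed, and of those that came closest to passing, are shown because a seed decides which messengers a microRNA can pair with. Sequences are from RefSeq on build GRCm38.p6, 5′ to 3′, with the seed (bases 2 to 8) in capitals. Of 167 microRNA genes tested, chosen by symbol with some host genes among them, 140 had an entry in that table. Mir669a-3 had none and is named only, as is Mir187.
mmu-miR-210-3p: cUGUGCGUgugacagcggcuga
mmu-miR-210-5p: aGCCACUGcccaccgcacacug
mmu-miR-1956: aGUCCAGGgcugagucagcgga
mmu-miR-3961: uGCCCUCAgcucaguugga
mmu-miR-188-5p: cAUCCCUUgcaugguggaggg
mmu-miR-188-3p: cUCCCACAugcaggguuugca
mmu-miR-1188-5p: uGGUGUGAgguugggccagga
mmu-miR-1188-3p: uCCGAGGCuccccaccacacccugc
mmu-miR-680: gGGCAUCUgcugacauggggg
The 9 seeds shown differ from one another. Both microRNA genes with a sequence that passed are shown as hairpins, where the capitals mark the mature RNAs. Mir210 lies on the minus strand at chr7:141221384-141221493 and Mir1956 on the plus strand at chr3:138526421-138526485.
Mir210: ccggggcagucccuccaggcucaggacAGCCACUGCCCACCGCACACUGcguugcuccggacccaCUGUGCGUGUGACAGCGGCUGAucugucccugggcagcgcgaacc
Mir1956: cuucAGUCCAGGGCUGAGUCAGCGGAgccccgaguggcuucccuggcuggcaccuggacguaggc

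Of the 16352 genes tested, 34 (0.208%) passed: 9 rose in the immunized lines (0.055%) and 25 fell (0.153%). The differences were small, between 0.29 and 0.90 on the log2 scale or 1.23- to 1.87-fold. Fewer cells that carry a transcript and less of it per cell cannot be told apart in such bulk RNA. In all 34 genes the 6 immunized lines lay on 1 side of the 3 NIMM lines. That was so for 1011 of all genes tested (6.18%), 616 of them higher (3.77%) and 395 lower (2.42%). At an unadjusted p under 0.05 there were 1756 genes (10.7%). Of the 34, 8 were small RNA genes, 13 were predicted or unnamed genes, of which 4 rose and 9 fell, and the rest were named genes. The count rests on each line: with 1 line left out, between 7 genes (without NIMM 1) and 13 (without IMM 2) passed. Without NIMM 4 the count was 12 (0.0734%). Only 6 of the 34 passed in all 9 such fits. Those 6 all fell: Mir669a-3, Zfp747, Snora21 and 3 predicted genes. No gene rose in 6 of the 9 such fits, and at most 2 did.

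**Figure D1:**
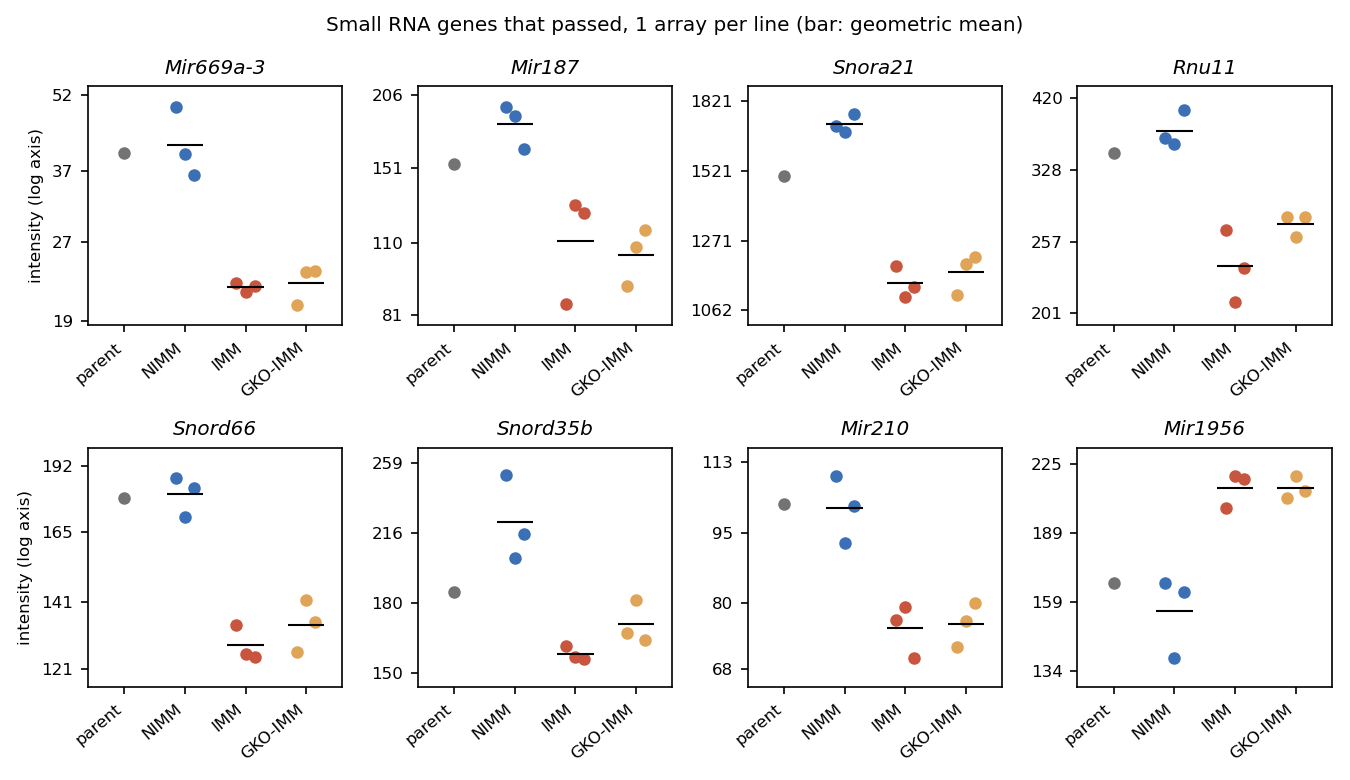
Intensity (log axis) of the 8 small RNA genes that passed, 1 point per line in the parent, NIMM, IMM and GKO-IMM groups, with a bar at each group's geometric mean. In 7 genes the 6 immunized points lie under the 3 NIMM points, and in Mir1956 above them.

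Among 247 small RNA genes tested 1 rose and 7 fell, against 0.055% and 0.153% of all genes. Mir669a-3, a microRNA gene within the span of Sfmbt2 on chromosome 2 (10474433 to 10474541), had the largest difference of the 34. Its intensities were 49.4, 39.99 and 36.4 in NIMM 1, 3 and 4, 22.4, 21.6 and 22.2 in IMM 1, 2 and 8, 20.4, 23.6 and 23.7 in GKO-IMM 1, 2 and 3, and 40.1 in the parent. The immunized lines were all under the filter of 26.7 and the NIMM lines and parent all above it, so the gene was tested only through the groups where it was high. It fell by 0.90 (SE 0.09, adjusted p = 0.00194). The other microRNA genes tested within the span of Sfmbt2 were Mir467c, at -0.28 (SE 0.13, adjusted p = 0.474), and Mir669h, at -0.03 (SE 0.05, adjusted p = 0.914). Related copies may share probe sequence, and whether the probes read them apart was not tested.

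Mir187, on chromosome 18, had intensities of 195, 188 and 164 in the NIMM lines, 85.0, 129 and 125 in the IMM lines and 91.8, 108 and 116 in the GKO-IMM lines, with 154 in the parent. It fell by 0.75 (SE 0.13, adjusted p = 0.0482), the widest spread within the immunized lines of the 8 small RNA genes, though no immunized line reached a NIMM line. Mir210, best known as the microRNA induced by hypoxia, read 109, 92.7 and 102 in the NIMM lines and 102 in the parent. In the IMM lines it read 76.8, 79.2 and 69.9, and in the GKO-IMM lines 71.9, 76.5 and 80.0. It fell by 0.42 (SE 0.07, adjusted p = 0.0428), without overlap. None of the 25 hypoxia and glycolysis genes tested passed beside it by limma. Of these, 0 were under 0.05 unadjusted, against 10.7% of all genes, and the list median was 0.10.

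Mir1956 was the only small RNA gene that rose. Its intensities were 167, 138 and 163 in the NIMM lines and 167 in the parent, against 201, 218 and 216 in the IMM lines and 207, 218 and 210 in the GKO-IMM lines. The difference was 0.44 (SE 0.06, adjusted p = 0.0357), again without overlap. The hairpin lies within Eif4e, which encodes the cap-binding translation initiation factor, and Eif4e itself was at 0.10 (SE 0.08, adjusted p = 0.709). With any 1 of the 9 lines left out, Mir210, Mir187 and Mir1956 no longer passed, with adjusted p up to 0.211, 0.255 and 0.114.

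The microRNA genes spread to both sides of the median of all genes. Chosen by symbol, they include long host genes of microRNAs such as Mir100hg, Mir99ahg and Mir9-3hg, also counted among the 247 small RNA genes. The median difference over the 167 was 0.03, and 70 of them were below 0 (41.9%). Of the 167, 3 fell and 1 rose, against 0.153% and 0.055% of all genes. At an unadjusted p under 0.05 there were 56 (33.5%), 33 higher and 23 lower, against 10.7% of all genes. In 33 (19.8%) the 6 lines did not overlap the 3, 20 higher and 13 lower, against 6.18% of all genes. Shares above those of all genes were not particular to small RNA genes. Olfactory receptor genes were at 25% and 14.8% by the same measures, and predicted or unnamed genes at 16.3% and 9.57%. Among those just short of the threshold, Mir3961 was at -0.56 (SE 0.10, adjusted p = 0.0504), Mir188 at -0.52 (SE 0.09, adjusted p = 0.0567), Mir1188 at 0.28 (SE 0.05, adjusted p = 0.0661) and Mir680-2 at 0.33 (SE 0.07, adjusted p = 0.102). Each of these 4 separated the 6 lines from the 3. None of the 16 genes of the microRNA machinery tested passed by limma (1 under 0.05 unadjusted, median 0.02).

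Of the H/ACA box snoRNA genes 1 of 25 tested passed, and it fell, where 0.153% of all genes did. Snora21, which in human guides pseudouridylation of large subunit ribosomal RNA, lies on chromosome 11 (97781639 to 97781766) within the span of Rpl23, a ribosomal protein gene that was not tested singly. It read 1710, 1683 and 1762 in the NIMM lines, 1190, 1098 and 1128 in the IMM lines, 1105, 1196 and 1219 in the GKO-IMM lines and 1501 in the parent. The 6 immunized lines spanned 1098 to 1219 and stood well apart from the NIMM lines, with the parent between them. Snora21 fell by 0.57 (SE 0.05, adjusted p = 0.00135) and passed with any line left out.

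Of the C/D box snoRNA genes 2 of 41 tested passed, and both fell, where 0.153% of all genes did. Snord66, on chromosome 16 within the translation scaffold gene Eif4g1, read 187, 171 and 183 in the NIMM lines and 178 in the parent. It read 134, 125 and 124 in the IMM lines and 126, 141 and 135 in the GKO-IMM lines, without overlap. Snord66 fell by 0.46 (SE 0.06, adjusted p = 0.0133), while Eif4g1 around it was at 0.06 (SE 0.06, adjusted p = 0.789). Without NIMM 1 or NIMM 4 it no longer passed (adjusted p = 0.0527 without NIMM 4, and at most 0.105). Snord35b, on chromosome 7, read 251, 202 and 216 in the NIMM lines and 185 in the parent. In the IMM lines it read 161, 157 and 156 and in the GKO-IMM lines 166, 181 and 164, so the parent lay close to the highest immunized line. It fell by 0.44 (SE 0.07, adjusted p = 0.0465), and did not pass once any 1 line was left out. Snord35a, which is paired with it by name, was at -0.34 (SE 0.06, adjusted p = 0.0661), also without overlap.

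Most snoRNA genes lay lower in the immunized lines by amounts too small to pass one by one. Of the 41 C/D box genes 38 were below 0 (92.7%), with a median of -0.22. Of the 25 H/ACA box genes 19 were below 0 (76.0%), with a median of -0.09 that was -0.15 with the filter at percentile 50. Over all genes tested 43.6% were below 0, with a median of 0.01. Together the 66 snoRNA genes had a median of -0.20. Of these, 12 had all immunized lines under all NIMM lines and 3 above them, against 2.42% and 3.77% of all genes. At an unadjusted p under 0.05, 31 were lower and 3 higher, against 4.44% and 6.3% of all genes. The median for the 66 moved between -0.13 (without NIMM 1) and -0.22 (without NIMM 3) when 1 line was left out, with 55 to 57 genes below 0. Snora75 had the lowest value of any snoRNA gene at -0.70 (SE 0.20, adjusted p = 0.243), but NIMM 1 read 118 while NIMM 4 at 52.8 lay under IMM 1 at 55.8.

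Other snoRNA genes without overlap and not passing included Snord49b at -0.40 (SE 0.09), Snord55 at -0.29 (SE 0.07) and Snord42b at -0.26 (SE 0.06) of the C/D class. In the H/ACA class the paired copies Snora73b and Snora73a were at -0.41 (SE 0.10) and -0.29 (SE 0.07). Snora68 went the other way at 0.18 (SE 0.06), with 189, 194 and 192 in the NIMM lines and 202 to 233 in the immunized lines. Adjusted p was between 0.156 and 0.311 for these 6 genes in limma's fit.

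**Figure D2:**
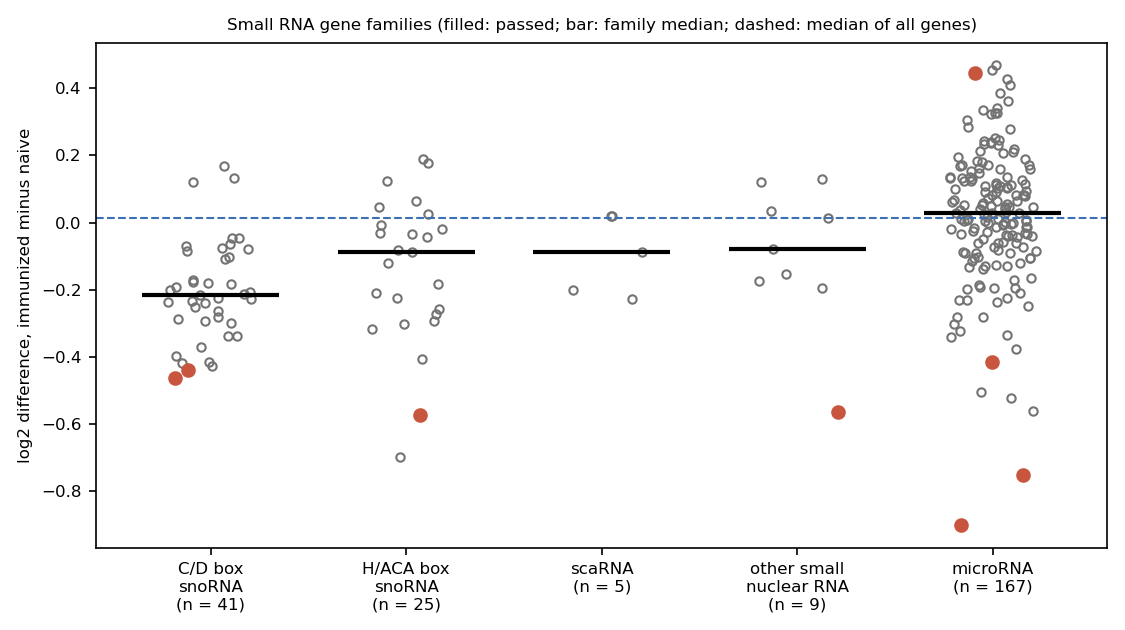
Log2 difference, immunized minus naive, of each small RNA gene tested, by family; filled points passed, bars are family medians and the dashed line is the median of all genes. Most C/D box genes lie under the dashed line, and the microRNA genes spread to both sides of it.

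The snoRNA level also varied between lines of the same host. Taking for each line the median over the 41 C/D box genes of its log2 intensity minus the NIMM mean, the NIMM lines were at 0.06, -0.07 and -0.01, the IMM lines at -0.08, -0.35 and -0.23, and the GKO-IMM lines at -0.23, -0.16 and -0.18. NIMM 3 and IMM 1 nearly met, and the parent at -0.04 lay among the NIMM lines. For the H/ACA box genes the NIMM lines were at -0.03 to 0.06, the IMM lines at -0.15 to -0.03, the GKO-IMM lines at -0.25 to -0.11 and the parent at -0.10. Here NIMM 3 and IMM 1 were at the same level, and the parent lay among the immunized lines. The microRNA genes lay within -0.01 to 0.05 over all 10 arrays. Their NIMM lines were at -0.01 to 0.01, the IMM lines at -0.01 to 0.04, the GKO-IMM lines at 0.02 to 0.05 and the parent at 0.03.

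**Figure D3:**
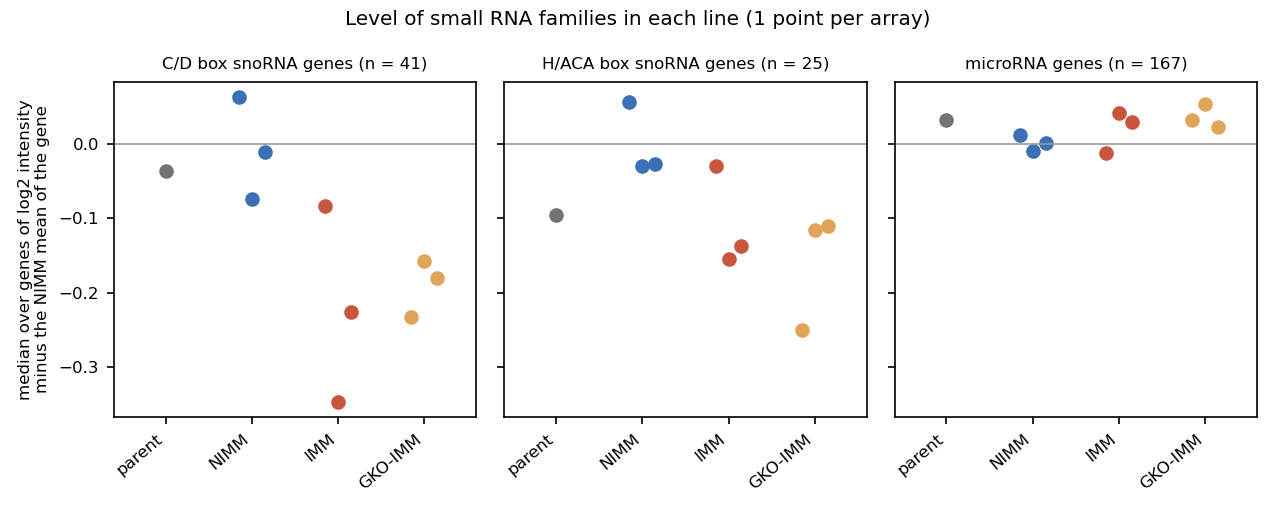
Median over the genes of a family of log2 intensity minus the gene's NIMM mean, 1 point per line, for C/D box snoRNA, H/ACA box snoRNA and microRNA genes. The C/D box points of the immunized lines lie at -0.35 to -0.08, those of the NIMM lines at -0.07 to 0.06.

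The genes that span the snoRNAs lay closer to 0 than the snoRNAs. For 54 snoRNA genes a tested protein-coding or long noncoding gene spans the position, 41 such genes in all. The median was -0.18 for these snoRNA genes and -0.01 for the genes around them, and 39 of the 54 lay below the gene around them. None of the 14 snoRNA host genes named as such (Snhg) passed by limma, with a median of -0.03. Of these, 1 was under 0.05 unadjusted, against 10.7% of all genes. The one under 0.05 was Snhg9 at -0.23 (SE 0.08, adjusted p = 0.327). Of 16 snoRNP protein genes, with a median of -0.01, none passed and 2 were under 0.05 unadjusted, against the same 10.7% of all genes. These were the assembly factor gene Znhit6 at -0.13 (SE 0.05, adjusted p = 0.39) and Nop10, of the H/ACA particle, at 0.13 (SE 0.06, adjusted p = 0.433).

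**Figure D4:**
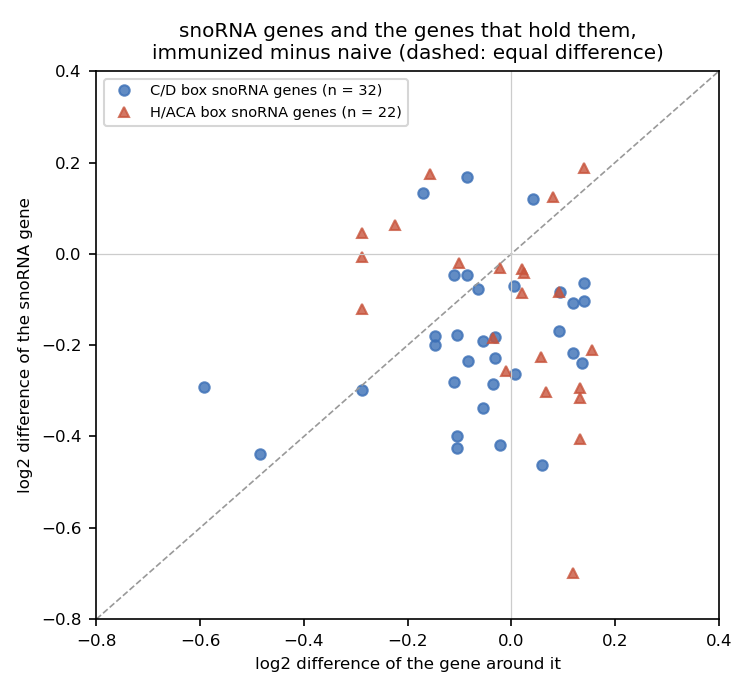
Log2 difference of each snoRNA gene (vertical) against that of the tested gene whose span holds it (horizontal), immunized minus naive, with the dashed line at equal difference. Of the 54 points, 39 lie under the dashed line, and most genes around them lie near 0.

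In the group of spliceosomal and other small noncoding RNA genes Rnu11 was the one that passed. It encodes U11, which recognizes the upstream splice site of the minor class of introns. Rnu11, on chromosome 4 (132270079 to 132270186), read 366, 359 and 403 in the NIMM lines, 267, 209 and 235 in the IMM lines, 279, 261 and 279 in the GKO-IMM lines and 348 in the parent. The IMM lines were mostly under the GKO-IMM lines, and both were under all NIMM lines and the parent. Rnu11 fell by 0.56 (SE 0.09, adjusted p = 0.0442), and passed in 1 of the 9 fits with a line left out, that without IMM 2. Its partner in the minor spliceosome, Rnu12, was at 0.13 (SE 0.06, adjusted p = 0.465), and Rpph1, the RNA of ribonuclease P, at -0.19 (SE 0.08, adjusted p = 0.405). The difference between Rnu11 and Rnu12 was not tested. Of 9 genes of this group tested 1 fell, against 0.153% of all genes. The group was chosen by symbol and also held Terc, Rn7sk, Rny1, Rny3 and Rnu3a, so not all of it belongs to the spliceosome. Rnu3a (U3) was not counted among the snoRNA genes. None of the 5 small Cajal body RNA genes passed by limma, and 2 were under 0.05 unadjusted, against 10.7% of all genes. Both were without overlap, against 6.18% of all genes: Scarna2 at -0.23 (SE 0.07) and Scarna6 at -0.20 (SE 0.07), with adjusted p = 0.309 and 0.36.

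Outside the small RNAs, Zfp747 had the smallest p of all genes. It encodes a zinc finger protein with a KRAB domain, a class of DNA-binding repressors, and lies on chromosome 7. It read 111, 121 and 112 in the NIMM lines, 74.8, 77.1 and 71.3 in the IMM lines, 75.0, 75.8 and 70.5 in the GKO-IMM lines and 97.4 in the parent. The immunized lines agreed within 70.5 to 77.1, and the parent lay between them and the NIMM lines. Zfp747 fell by 0.63 (SE 0.05, adjusted p = 0.00115) and passed with any line left out. A second zinc finger gene, Zfp428, also on chromosome 7, fell by 0.39 (SE 0.06, adjusted p = 0.0421). Of 333 genes named Zfp these were the only ones that passed, where 0.208% of all genes did. The median of the 333 was 0.00. Zfp428, with the ribosomal protein pseudogene Rpl17-ps9 and the T cell receptor segment Tcrb-J named further on, was chosen after its values were seen.

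Tlcd1, which encodes a membrane protein with a TLC domain, fell as well. It read 2100, 1860 and 2046 in the NIMM lines, 1638, 1478 and 1471 in the IMM lines, 1317, 1520 and 1388 in the GKO-IMM lines and 1978 in the parent. The parent lay among the NIMM lines and no immunized line reached them. Tlcd1 fell by 0.45 (SE 0.07, adjusted p = 0.0428), a call that held without IMM 1 and was lost without any other single line. Tlcd1 has 2 transcript clusters, and these values are of the brighter one.

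Of the chemosensory receptor genes 3 passed, all of them lower by similar amounts. Olfr1444 and Olfr875, which encode olfactory receptors, fell by 0.46 (SE 0.07, adjusted p = 0.0357) and 0.44 (SE 0.07, adjusted p = 0.0375), and the vomeronasal receptor gene Vmn1r159 by 0.43 (SE 0.07, adjusted p = 0.0442). Olfr1444 read 33.8 to 37.8 in the NIMM lines and 23.6 to 28.3 in the immunized lines, whose mean lay under the filter of 26.7, so it too was tested only through the lines where it was high. Olfr875 read 36.1 to 43.0 against 27.7 to 31.5, and Vmn1r159 95.4 to 111 against 70.0 to 81.6. Of 128 olfactory receptor genes tested 2 fell and none rose, with a median of 0.02. Of 20 vomeronasal receptor genes 1 fell, with a median of -0.02. Over all genes tested 0.153% fell and 0.055% rose. At an unadjusted p under 0.05 there were 32 olfactory (25%) and 5 vomeronasal (25%) receptor genes, against 10.7% of all genes. The 6 lines did not overlap the 3 in 19 (14.8%) and 5 (25%) of them, against 6.18% of all genes. Rpl17-ps9 fell by 0.39 (SE 0.07, adjusted p = 0.0474), from 73.8 to 76.5 in the NIMM lines to 52.2 to 63.4.

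Besides Mir1956 and an immunoglobulin segment, 3 named genes rose, each from an intensity near the filter. Nap1l5, an imprinted gene of the nucleosome assembly protein family, read 33.7 to 35.6 in the NIMM lines and 40.6 to 49.0 in the immunized lines, and rose by 0.38 (SE 0.06, adjusted p = 0.0465). Its parent value was 43.1, within the immunized range. Ugt8a, the enzyme of galactosylceramide synthesis, read 24.4 to 26.4 in the NIMM lines, all under the filter, and 29.8 to 35.8 in the immunized lines, a rise of 0.36 (SE 0.06, adjusted p = 0.0474). Ugt8a too was tested only through the lines where it was high. The keratin gene Krt90 rose by 0.32 (SE 0.05, adjusted p = 0.0465), from 29.6 to 32.5 up to 37.8 to 42.3, with the parent at 38.5. Next in p and not passing were Trim45, of the tripartite motif family, at 0.33 (SE 0.06, adjusted p = 0.0502), the Kelch gene Klhl31 at 0.36 (SE 0.06, adjusted p = 0.0504) and the RNA-binding protein gene Larp6 at 0.33 (SE 0.06, adjusted p = 0.0723), each without overlap.

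Probes for antigen receptor segments moved in both directions. The immunoglobulin kappa segment Igkv5-43 read 114, 105 and 127 in the NIMM lines, 157, 161 and 153 in the IMM lines, 142, 161 and 144 in the GKO-IMM lines and 136 in the parent. It rose by 0.41 (SE 0.07, adjusted p = 0.0465), while Tcrb-J fell by 0.34 (SE 0.06, adjusted p = 0.0474), from 68.0 to 71.7 in the NIMM lines to 50.1 to 58.4. Igkv5-43 has 3 transcript clusters and Tcrb-J 4, and these values are of the brightest of each. Igh-VX24, a heavy chain segment, was at 0.42 (SE 0.07, adjusted p = 0.0504). No lymphocyte marker passed alongside. The 13 T and NK cell markers on the array summed to 341 to 351 in the NIMM lines and 338 to 352 in the immunized lines, and the 7 B cell markers to 308 to 331 and 308 to 324.

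By position, 27 of the 34 genes had a chromosome in the gene table and 7 of these lay on chromosome 7, all of them lower, including Zfp747, Zfp428, Snord35b, Mir210 and Vmn1r159. Chromosome 7 holds 8.29% of the tested genes with a position.

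The IMM and GKO-IMM lines were then set side by side to see whether the 34 genes depended on host IFN-γ. Both differences use the same NIMM arrays and are therefore not independent of each other. Mir669a-3 was at -0.91 (SE 0.10) in IMM and -0.88 (SE 0.10) in GKO-IMM lines against NIMM, Zfp747 at -0.63 and -0.64 (SE 0.06 each), Snora21 at -0.59 and -0.55 (SE 0.06 each) and Mir1956 at 0.45 and 0.44 (SE 0.08 each). Snord66 was at -0.50 and -0.43 (SE 0.07 each) and Mir187 at -0.71 and -0.80 (SE 0.15 each). The largest gap between the immunized groups was in Rnu11, at -0.67 and -0.46 (SE 0.09 each). The direct difference, IMM minus GKO-IMM, uses no NIMM array. It passed in none of the 34 genes in limma's fit of 3 groups, where 191 of all genes tested did (1.17%), and was under 0.05 unadjusted in 1 of the 34, Rnu11 (-0.21, adjusted p = 0.244). Differences among the 34 ran from -0.21 to 0.16, and their 95% intervals reached from -0.40 to 0.41. The intervals thus include gaps of up to that size between the immunized groups, and pooling the groups favours genes on which they are close.

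**Figure D5:**
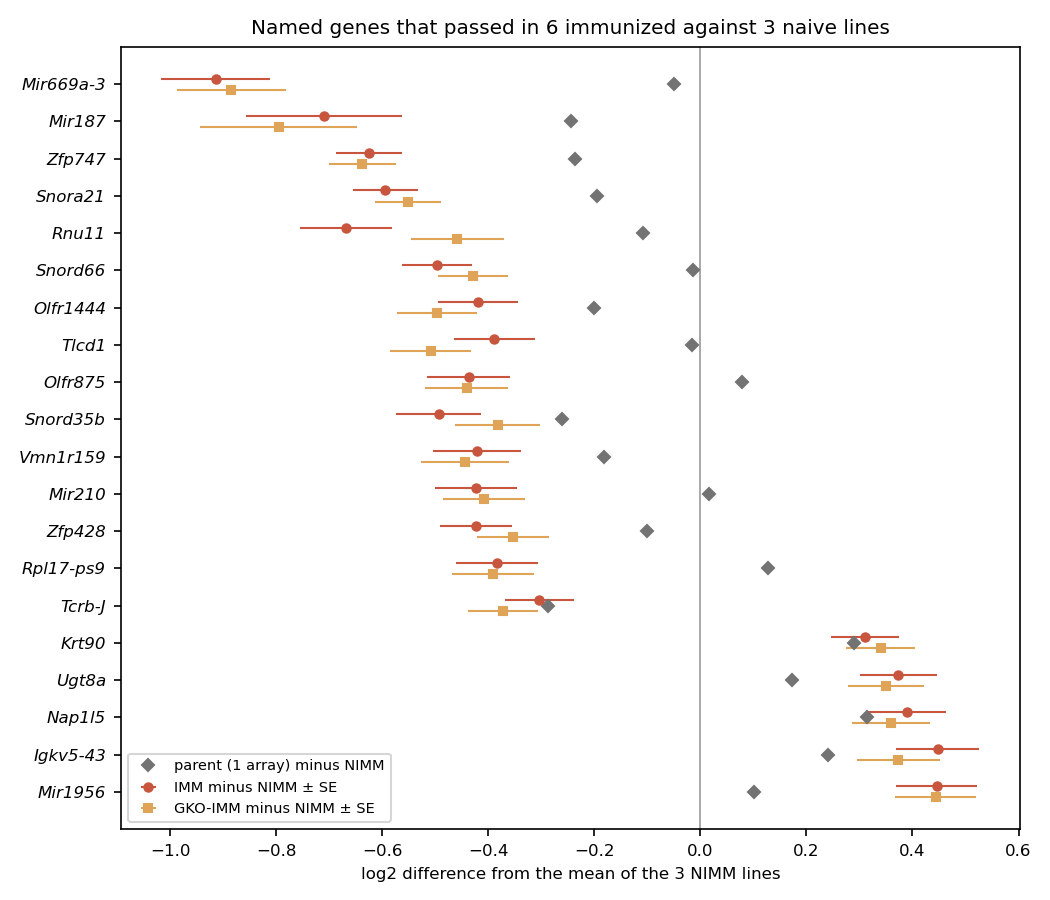
Log2 difference from the mean of the 3 NIMM lines for the named genes that passed, in IMM lines (circles) and GKO-IMM lines (squares) with SE, and in the single parent array (diamonds, no error). The circle and square lie close together in most genes and farthest apart in Rnu11, at -0.67 and -0.46. Most diamonds lie nearer 0 than the circles and squares of genes that fell.

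The parent was used as a reference without a test. Its value was nearer the NIMM mean than the immunized mean in 26 of the 34 genes, against 59.0% of all genes and 66.7% of the 1011 genes without overlap. Of the 25 genes that fell, the parent was nearer NIMM in 21 and above all 6 immunized lines in 22. It was within 0.06 of the NIMM mean for Mir669a-3, Snord66, Mir210 and Tlcd1. Of the 9 genes that rose, it was nearer NIMM in 5 and below all 6 immunized lines in 7. For Nap1l5 and Krt90 the parent was at 0.31 and 0.29 above the NIMM mean, the level of the immunized lines.

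None of the listed genes of the pathways through which immunity acts on melanoma cells passed in the fit of 1 cluster per gene. Over 20 lists of these and other functions 0 of the 425 members tested passed by limma, where 0.208% of all genes did. Cd74, the invariant chain of MHC class II and a listed gene of the IFN-γ response, was not among them, since its cluster is assigned to Cd74 and Mir5107 together. With every cluster tested that shared cluster, named here after its values were seen, fell by 0.51 (SE 0.10, adjusted p = 0.0495), from 52.6 to 54.1 in the NIMM lines to 34.4 to 48.6 in the IMM lines and 34.2 to 36.2 in the GKO-IMM lines, with 56.1 in the parent, and which of its genes it reads was not tested. The IFN-γ response list had a median of 0.02 (23 tested), MHC class I antigen presentation 0.01 (18 tested), checkpoint ligands and suppressive factors 0.03 (27 tested) and melanocyte pigment and differentiation genes -0.01 (23 tested), against 0.01 for all genes. In the first 3 of these lists 3 members each were under 0.05 unadjusted, and 0 in the pigment list, where 10.7% of all genes were. Of 20 genes listed singly, among them Jak1, B2m, Cd274 and Mitf, none passed, and 3 were under 0.05 unadjusted by limma. These were Psmb9, an immunoproteasome subunit gene, at -0.19 (SE 0.06, adjusted p = 0.243), Ifngr1, the IFN-γ receptor gene, at 0.17 (SE 0.06, adjusted p = 0.363), and Myc at -0.17 (SE 0.07, adjusted p = 0.419). The MHC class I gene H2-K1 was at 0.24 (SE 0.16, adjusted p = 0.651), its lines ranging from 62.7 to 92.9 in NIMM and 63.4 to 108 in the immunized groups.

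Single list members came closer than their lists. The chemokine gene Ccl27a was at -0.38 (SE 0.07, adjusted p = 0.0723), at 34.0, 39.3 and 37.5 in the NIMM lines, 33.0 in the parent and 24.8 to 30.6 in the immunized lines. Pdcd1lg2, which encodes the checkpoint ligand PD-L2, was at 0.31 (SE 0.07, adjusted p = 0.126), from 25.8 to 28.4 in the NIMM lines to 30.4 to 37.6. Nos2, the inducible nitric oxide synthase, was at 0.21 (SE 0.05, adjusted p = 0.182). In the matrix list Tinagl1 was at 0.44 (SE 0.09, adjusted p = 0.0965), with 348 to 395 in the NIMM lines, 443 to 582 in the immunized lines and 175 in the parent. All 4 were without overlap between the 6 lines and the 3.

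In 3 lists the medians of the immunized groups lay apart, a gap that was not tested as a list. The unfolded protein and integrated stress response list was at -0.28 in IMM and 0.53 in GKO-IMM lines against NIMM (26 tested), and its pooled median of 0.06 became 0.52 without NIMM 4. The cell cycle list was at 0.14 and -0.08 (34 tested), with a pooled median of 0.04 that became -0.12 without NIMM 4. For cholesterol biosynthesis the values were 0.04 and 0.21 (24 tested), with a pooled median of 0.11 with and without NIMM 4. The metalloproteinase gene Adam12 was at 0.11 (SE 0.08) in IMM and 0.46 (SE 0.08) in GKO-IMM lines, its pooled difference being 0.29 (SE 0.12, adjusted p = 0.415).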

How the data were processed

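RNA of 10 lines was hybridized to Affymetrix MoGene-2_0-st arrays, 1 each. Per the labels' protocols, Trizol extraction was followed by biotin labelling of cRNA. The deposited intensity columns are linear values per transcript cluster, called raw per the file headers, yet already on nearly 1 distribution. The deposited log2 columns equal the log2 intensities minus each cluster's median over the 10 arrays (largest difference 2.23e-06). For software and background correction, the sources used here give nothing.

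Log2 intensities were analysed without further scaling. Of 33793 clusters 24732 had 1 symbol, updated through RefSeq (GRCm38.p6). Each of 23360 genes was represented by its brightest cluster (mean of the 9 lines tested), and genes under percentile 30 (log2 4.74, intensity 26.7) were left out. limma 3.58.1 (lmFit, eBayes; R 4.3.3) fitted 6 lines against 3 (residual degrees of freedom 7, prior 4.29), and 3 groups for the side-by-side values. Python 3.11.15 and matplotlib 3.10.9 were used for tables and figures. The procedure was tested on simulated data. The number of arrays limits the precision.

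Members, families and the 20 gene lists were chosen with earlier results of these data known. Named genes were, per direction, the 12 with the largest difference among genes that passed without overlap (or all that passed and the next 5 by p), all small RNA genes that passed and the next 4 per family, up to 3 per list, and 20 fixed genes. Predicted genes were counted only, and a few named genes are not reported here. Alternatives were other scalings, filters, offsets, variance priors, array weights, blocks, cluster rules, a minimum fold and leaving out each line.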

Additional observations from a re-analysis of the deposited data

Results flagged for a closer look

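Psmb9, an immunoproteasome subunit gene, is listed because IMM 2, at an intensity of 31.7, lay far from the other 5 immunized lines, which read 29.0 to 29.8. The gap was 0.671 of the range of the 6 lines, and chance flags about 1 in 20 groups. Without IMM 2 Psmb9 still did not pass.

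Postn, which encodes the matrix protein periostin, is listed because the immunized groups differed: IMM minus GKO-IMM was 0.66 (adjusted p = 0.00436, limma's fit of 3 groups). It was at 0.14 (SE 0.08) in IMM and -0.53 (SE 0.08) in GKO-IMM lines against NIMM. The intensities were 40.2 to 47.4 in NIMM, 46.2 to 48.8 in IMM and 27.3 to 32.9 in GKO-IMM lines, and the pooled difference was -0.20 (SE 0.18, adjusted p = 0.768).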

How the results depend on the processing

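The 34 genes kept their direction under every alternative in which they were tested. The number that passed was 34 in all and 8 among small RNA genes. It was 57 and 13 with 3 groups fitted, 116 and 20 with array weights, 5 and 2 with a filter at percentile 50, 12 and 4 with 48 added before log2, 5 and 2 with a minimum of 1.1-fold, and 158 in all with every transcript cluster. With the host group as a random block it was 7 and 3, and with 1 line left out 7 to 13 and 2 to 4. With 15 subtracted before log2, 14 rose and 20 fell, against 9 and 25. The other alternatives left the count within 1.5 times. With the clusters of a gene averaged, 30 of the 34 passed, and the smallest absolute difference among the 34 was 0.18 instead of 0.29. The line numbers were tried as a replicate block, under which 0 genes and 0 small RNA genes passed by limma (1662 and 70 at an unadjusted p under 0.05). NIMM 4 and IMM 8 share their number with no other line and drop out of that fit. IMM 2 and GKO-IMM 2 share a number that no NIMM line has, so they add only to its spread. Its difference between immunized and naive rests on the lines numbered 1 and 3. Deviations of same-numbered lines from their group means correlated at -0.13 to 0.12. With so few lines these values cannot decide whether the numbers pair lines. Under that block Eif4g1 was at -0.014 instead of 0.06. The causes of these changes were not tested. The filter at percentile 50 tested fewer genes, and the fits with 1 line left out held fewer lines. The C/D box median stayed between -0.27 and -0.16 with 1 line left out and was -0.23 under both other scalings. The H/ACA box median of -0.09 was -0.13 to -0.06 with 1 line left out, -0.15 with the filter at percentile 50 and -0.18 under the replicate block. The number of arrays, 3 in the smaller group, limits the precision. Of the 34 genes 8 lay under intensity 37.8, the median of all genes on the array, and the part of low signal in what passed was not tested.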

Other observations

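Transcript clusters that do not stand for a gene in the comparison also differed. With every cluster above the filter tested on its own, 158 of 21166 passed (0.746%), and 86 of these had no gene symbol, 31 higher and 55 lower, out of 2438 such clusters (3.53%). Among second clusters of named genes, one for Fut11, a fucosyltransferase gene, fell by 1.11 (SE 0.09, adjusted p = 0.000767) while the brighter cluster of the gene was at 0.11. One for Etv5, an ETS transcription factor gene, fell by 0.63 (SE 0.07) with the brighter cluster at 0.20. One for Nop56, a core protein of C/D box snoRNPs whose gene also holds snoRNAs in its introns, fell by 0.59 (SE 0.10, adjusted p = 0.0195) with the brighter cluster at -0.03. Second clusters of Smarcd1 and Nrxn2 rose by 0.46 (SE 0.09) and 0.27 (SE 0.05), with the brighter clusters at 0.04 and -0.02. These 5 clusters were chosen after their values were seen, and what part of each gene they cover was not examined.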
